A study of Rattus norvegicus with 16 samples.

Results

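A set of 5 genes that mark inhibitory and excitatory neurons were followed through all 16 RNA sequencing libraries of a study of endocrine disrupting chemicals in the rat hypothalamus. They are Gad1 (ENSRNOG00000000007), Gad2 (ENSRNOG00000018200), Slc17a6 (ENSRNOG00000016147), Slc17a7 (ENSRNOG00000020650) and Camk2a (ENSRNOG00000018712), 5 of the 32883 gene IDs in each deposited count file. The members were listed by ID and symbol, and that list was made with earlier results of these data known. The deposited files give no symbols, and the rat gene table at hand holds no Ensembl ID, so the symbol attached to each ID could not be checked and no ID was dropped.

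The animals were female Wistar rats aged 21 days, and the tissue is labelled hypothalamus (MBH-PoA). EDC stands for endocrine disrupting chemicals, given as a mixture. F1 control and F1 EDC rats were exposed in utero to vehicle or to that mixture. F3 control and F3 EDC rats had the same exposures ancestrally, through the maternal lineage. The mixture or vehicle was given in food, starting 2 weeks ahead of gestation and lasting until lactation ended. Each group has 4 libraries. All 8 EDC samples carry the word Control in their titles, so groups were taken from the source descriptions, which match the treatment fields. The sources used here do not say whether rats of a group were littermates, so p-values measure the spread between these samples, nor what the mixture contained. F1 libraries carry lane number 2 in their file names and F3 libraries lane number 1, so generation and lane cannot be told apart.

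Gamma-aminobutyric acid (GABA), the main inhibitory transmitter, is made from glutamate by glutamate decarboxylase, whose 2 forms are encoded by Gad1 (GAD67) and Gad2 (GAD65). Glutamate neurons load their synaptic vesicles through vesicular glutamate transporters. Slc17a6 (VGLUT2) is the form that prevails in hypothalamus and thalamus, and Slc17a7 (VGLUT1) the form that prevails in cerebral cortex and hippocampus. Camk2a encodes the alpha subunit of calcium/calmodulin-dependent protein kinase II, a kinase of synaptic plasticity that is abundant in excitatory neurons of the forebrain. GABA neurons are numerous in the hypothalamus, as are Slc17a6 neurons, whereas Slc17a7 and Camk2a are better known from cortex and hippocampus.

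The 2 transporter genes are shown first by the sequence before their start sites, because they are the members whose counts moved furthest apart. RefSeq (build GRCr8) gives the 250 bases before the annotated start, on the plus strand of chromosome 1, at chr1:110348197-110348446 for Slc17a6 and at chr1:104785955-104786204 for Slc17a7. Capitals mark matches to the GC box letters GGGCGG or their reverse complement CCGCCC.
Slc17a6: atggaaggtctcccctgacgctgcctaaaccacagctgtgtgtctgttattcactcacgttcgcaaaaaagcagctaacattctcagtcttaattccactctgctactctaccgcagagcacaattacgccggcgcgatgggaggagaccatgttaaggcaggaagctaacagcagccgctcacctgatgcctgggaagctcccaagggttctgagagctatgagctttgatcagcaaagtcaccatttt
Slc17a7: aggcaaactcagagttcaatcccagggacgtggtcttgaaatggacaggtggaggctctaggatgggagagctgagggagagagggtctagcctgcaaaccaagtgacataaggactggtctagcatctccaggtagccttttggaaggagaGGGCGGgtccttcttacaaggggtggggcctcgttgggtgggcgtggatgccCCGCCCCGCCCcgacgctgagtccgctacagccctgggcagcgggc
The Slc17a7 window holds 3 GC box matches, some of which overlap, and the Slc17a6 window holds 0. Among 33469 rat windows of the same length, 30.5% hold at least 1 such match on either strand. GC content is 61.2% in the Slc17a7 window and 50.8% in the Slc17a6 window, against a median of 51.2% over all windows. The Gad1 window holds 1 GC box match and 1 match to the TATA box letters TATAAA or their reverse complement TTTATA, which occur in 12.9% of windows. The windows of Gad2 and Camk2a hold 0 matches to either motif, with GC contents of 62.0% and 60.4%. These matches describe the letters only, and no measurement of binding or methylation was made here.

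Counts assigned to genes ran from 5655354 to 35981898 per library, and a member had between 191 reads (Slc17a7 in F1 EDC replicate 3) and 21096 reads (Slc17a6 in F1 EDC replicate 4). Levels are given as CPM (gene counts scaled to a common library total), adjusted between libraries with TMM factors and not divided by gene length, so levels of different genes are not compared. Of all tested genes, 52.4% passed between F1 EDC and F1 control, and 27.5% between F3 control and F1 control (edgeR adjusted p under 0.05). No F1 EDC value can be given without the 4 F1 EDC libraries. Their multimapping share (reads placed at more than 1 site) was 41.8% to 51.6%, against 15.7% to 44.4% in the other libraries. The labelled tissue could not be checked against further hypothalamic markers, because the files pair no ID with a symbol. All 5 members passed the filter on low counts that left 15366 genes. In bulk tissue, fewer cells of a type, less RNA per cell and a different share of tissue from other brain regions cannot be told apart.

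Slc17a7 and Camk2a fell steeply in F1 EDC, whereas Gad1, Gad2 and Slc17a6 did not pass the test. Slc17a7 was 6.38-fold lower and Camk2a 2.57-fold lower than in F1 control. Of the 5 members, 2 passed (adjusted p under 0.05 by the quasi-likelihood test of edgeR), both lower, where 52.4% of all tested genes passed in either direction. Of all tested genes 27.0% passed as lower and 25.4% as higher. The share of members called was therefore no higher than that of all genes. Both called members were at least 2-fold lower, as were 10.4% of tested genes. The median log2 fold change of the 5 members was -0.15, against -0.0042 over all tested genes.

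**Figure D1:**
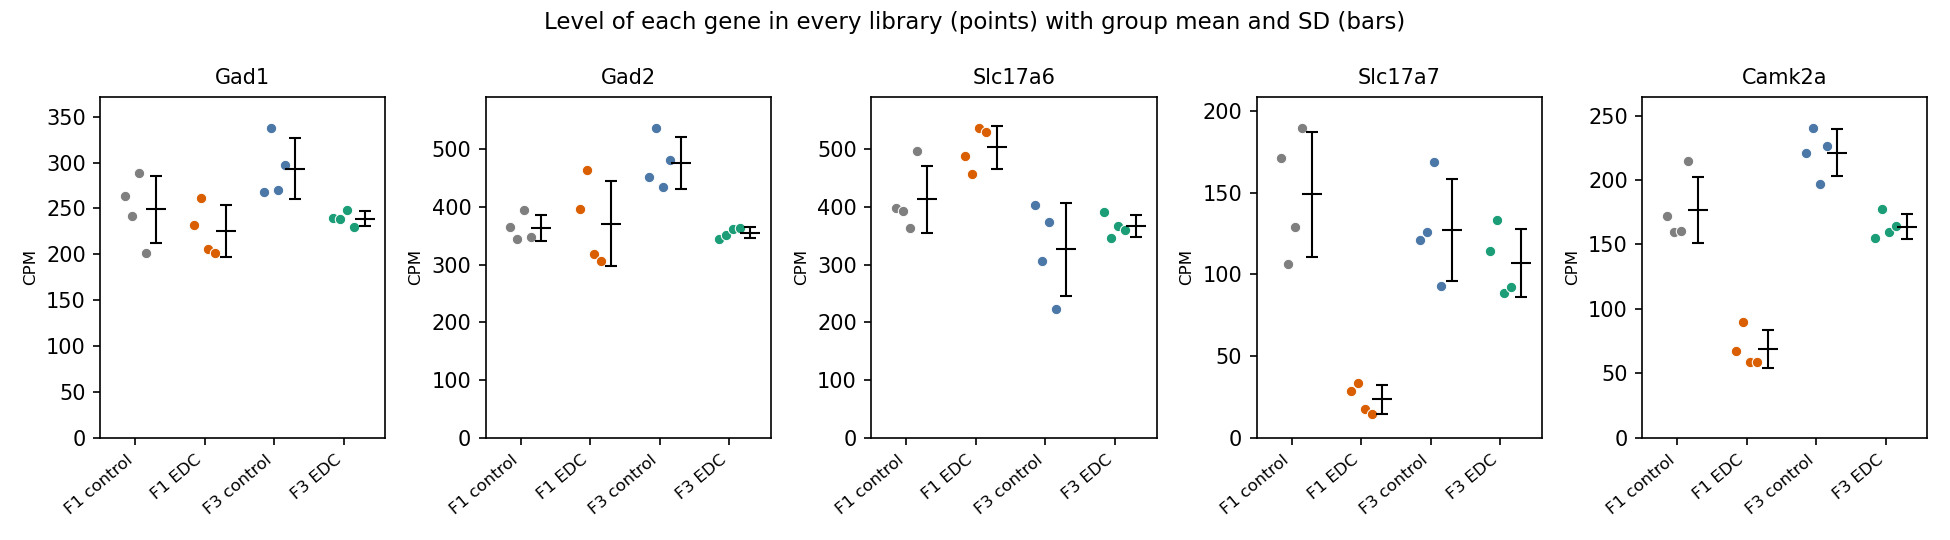
Level of each gene in CPM (vertical axes, from 0) in the 4 libraries of each group (points, replicates 1 to 4 from left to right), with the group mean and SD (bars, n = 4). Slc17a7 and Camk2a are lowest in F1 EDC, with no overlap with any other group, and Gad2 is highest in F3 control, where its mean is 476 CPM. F1 EDC and F1 control did not overlap in 44.0% of all tested genes.

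Slc17a7 stood at 171, 106, 129 and 189.8 CPM in F1 control replicates 1 to 4. In F1 EDC it stood at 28.5, 33.4, 17.6 and 14.5 CPM. Every F1 EDC value was thus far below every F1 control value. Control averaged 149 ± 38.2 CPM and EDC 23.5 ± 8.88 CPM (SD, n = 4). The log2 fold change was -2.67 (SE 0.30, 95% interval -3.32 to -2.02; edgeR adjusted p = 5.83e-06). Of the 15366 tested genes, 263 (1.71%, itself included) had a fold change as low or lower. With any 1 of the 16 libraries left out the log2 fold change lay between -2.89 and -2.48 and stayed past the threshold.

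Camk2a stood at 172, 159.8, 161 and 215 CPM in F1 control and at 67.6, 89.9, 58.9 and 58.6 CPM in F1 EDC. The groups did not overlap, as was the case for 44.0% of all tested genes in this comparison. Control averaged 177 ± 25.8 CPM and EDC 68.7 ± 14.7 CPM (SD, n = 4). The log2 fold change was -1.36 (SE 0.12, 95% interval -1.61 to -1.11; edgeR adjusted p = 1.05e-08). Of all tested genes, 998 (6.49%) were as low or lower. Although its change was smaller than that of Slc17a7, its replicates were tighter, and its p was smaller.

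The multimapping share was over 40% in all 4 F1 EDC libraries and in 4 libraries of other groups. The 4 libraries of other groups in which that share was over 40% (F1 control replicates 3 and 4, F3 control replicate 1 and F3 EDC replicate 4) had 92.0 to 189.8 CPM of Slc17a7 and 161 to 221 CPM of Camk2a, above every F1 EDC library. With the multimapping share as a covariate the F1 log2 fold changes were -2.69 for Slc17a7 and -1.43 for Camk2a. The share was 41.6% to 44.4% in those 4 libraries of other groups and 41.8% to 51.6% in F1 EDC. Its upper range was thus seen in F1 EDC alone. The part of multimapping in the falls was not tested.

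Slc17a6, the transporter gene that prevails in hypothalamus, stood at 398, 394, 364 and 497 CPM in F1 control and at 488, 458, 538 and 529.6 CPM in F1 EDC. Only control replicate 4 reached into the EDC range. The levels were 413 ± 57.7 and 503 ± 37.4 CPM (SD, n = 4), a log2 difference of 0.29 (SE 0.14, 95% interval -0.01 to 0.59; edgeR adjusted p = 0.103). The call depended on the fit. Slc17a6 passed as higher with the F1 libraries fitted alone (0.28; edgeR adjusted p = 0.0155), with DESeq2 (0.31; adjusted p = 0.0348), without F1 control replicate 4 (0.39; edgeR adjusted p = 0.0337) and without F3 control replicate 4 (0.29; edgeR adjusted p = 0.0114). Over the alternatives other than leaving out 1 library its adjusted p ran from 0.0155 to 0.167.

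Gad1 stood at 264, 242, 289 and 202 CPM in F1 control and at 232, 262, 205 and 201 CPM in F1 EDC, and the groups overlapped. Its log2 difference was -0.15 (SE 0.10, 95% interval -0.36 to 0.06; edgeR adjusted p = 0.231). Without F1 control replicate 4, the control with the lowest level, it was -0.23 and passed (edgeR adjusted p = 0.0433). Gad2 stood at 366, 345, 395 and 348 CPM in F1 control and at 397, 463, 319 and 306 CPM in F1 EDC, so the EDC values lay on both sides of the controls. Its log2 difference was 0.03 (SE 0.10, 95% interval -0.18 to 0.24; edgeR adjusted p = 0.832). For the genes of GABA synthesis these intervals bound an F1 difference to less than the change measured in Camk2a.

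**Figure D2:**
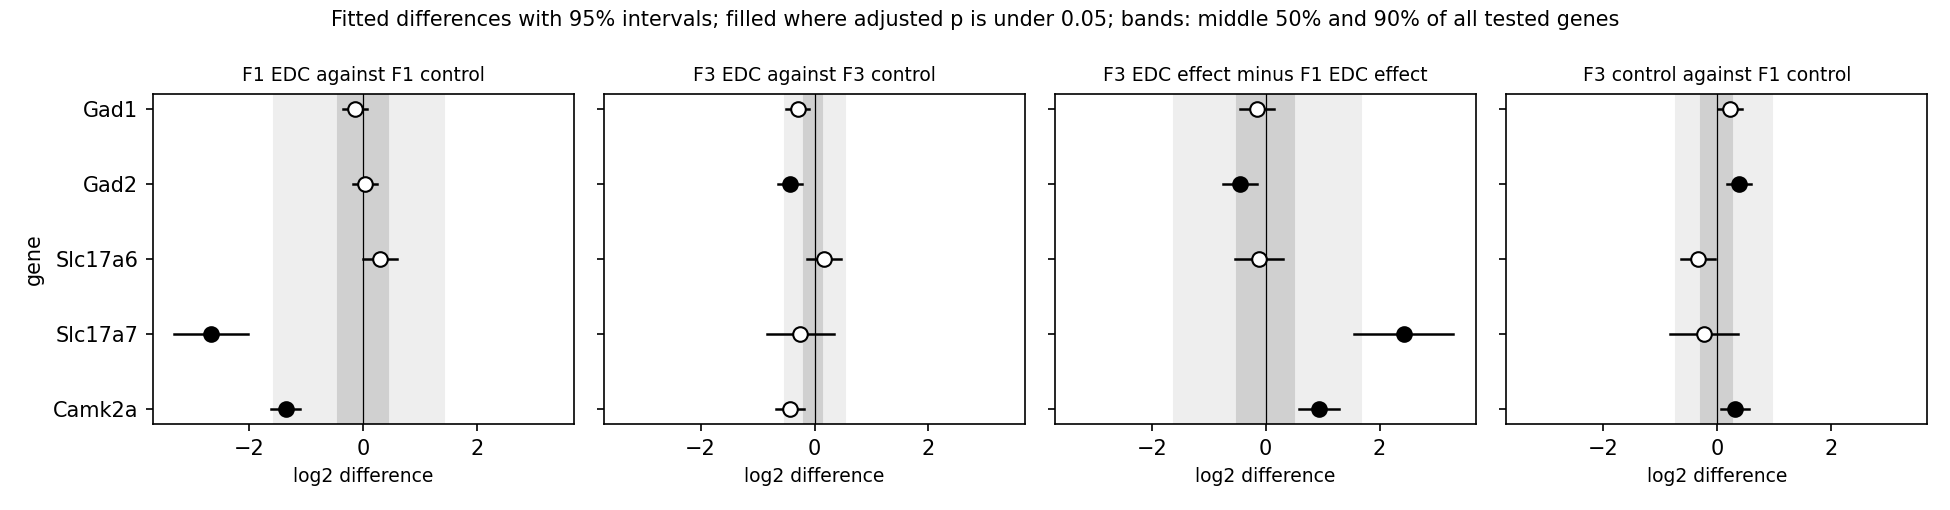
Fitted log2 difference of each gene (points, with 95% intervals as lines) in 4 comparisons, filled where the edgeR adjusted p is under 0.05, over bands that hold a central and a wider range of all 15366 tested genes. Slc17a7, at -2.67 in F1 and 2.42 in the difference between generations, lies outside the wider band in both.

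Within F1 EDC, replicate 2 had the highest Gad1, Gad2, Slc17a7 and Camk2a and the lowest Slc17a6 of the 4 libraries. Replicate 4 had the lowest Gad1, Gad2, Slc17a7 and Camk2a, and replicate 3 the highest Slc17a6. The multimapping share was 51.6%, 46.7%, 44.9% and 41.8% in replicates 1 to 4, and its part in this spread was not tested. Over all groups, the SD of log2 CPM within groups was 0.41 for Slc17a7, larger than in 75.6% of tested genes. It was 0.16 for Gad1 and Gad2, below the median of 0.21 over all genes. Genes of like level were not set apart in this comparison.

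In F3, the generation with ancestral exposure only, Gad2 was 1.34-fold lower in F3 EDC than in F3 control and was the 1 member of 5 past the threshold, where 2.94% of all tested genes passed, 1.87% as lower and 1.07% as higher. Over all genes this split was 287 lower and 165 higher, and with upper quartile factors 184 lower and 200 higher. Gad1 and Camk2a also had every F3 EDC value below every F3 control value, without passing the test. Groups that did not overlap were thus seen in 3 of the 5 members, against 12.2% of all tested genes. All 3 had their highest group mean in F3 control. Their F3 EDC means (Gad1 239, Gad2 355 and Camk2a 164 CPM) lay near those of F1 control (249, 364 and 177 CPM). Neither transporter gene was called. The median log2 fold change was -0.30 over the 5 members and -0.027 over all tested genes.

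Gad2 stood at 452, 537, 434.5 and 481 CPM in F3 control and at 344, 352, 362 and 364 CPM in F3 EDC. The EDC values lay close together, with a coefficient of variation of 2.64% against 9.45% in control. Control averaged 476 ± 45.0 CPM and EDC 355 ± 9.38 CPM (SD, n = 4). The log2 fold change was -0.42 (SE 0.10, 95% interval -0.63 to -0.21; edgeR adjusted p = 0.0267). This call was fragile. It was lost without F3 control replicate 2 (-0.36; edgeR adjusted p = 0.113), F3 EDC replicate 1 (-0.41; 0.0688), replicate 2 (-0.42; 0.0616), replicate 3 (-0.43; 0.0997) or replicate 4 (-0.44; 0.0521), and without the libraries over 40% multimapping (-0.43; edgeR adjusted p = 0.0644). Over the alternatives other than leaving out 1 library the adjusted p ran from 0.00416 to 0.0644.

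Gad1, the gene of the other decarboxylase, stood at 268, 338, 270.0 and 298 CPM in F3 control and at 239.7, 238, 248 and 229 CPM in F3 EDC. All 4 EDC values were below the lowest control. The log2 difference was -0.30 (SE 0.10, 95% interval -0.50 to -0.09; edgeR adjusted p = 0.122).

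Camk2a stood at 221, 241, 197 and 226 CPM in F3 control and at 155, 178, 159 and 164 CPM in F3 EDC, again with no overlap. The log2 difference of -0.43 (SE 0.12, 95% interval -0.68 to -0.19) just missed the threshold, at an edgeR adjusted p of 0.0513. It passed without F1 control replicate 4 (edgeR adjusted p = 0.0250), F1 EDC replicate 2 (0.0221) or F3 control replicate 3 (0.0497), with DESeq2 (adjusted p = 0.0121), with limma voom (adjusted p = 0.00796) and with the F3 libraries fitted alone (edgeR adjusted p = 0.0127). Its adjusted p over the alternatives other than leaving out 1 library ran from 0.00796 to 0.0950. Camk2a and Gad2 thus had much the same F3 difference on either side of the threshold.

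Slc17a7 stood at 121, 126, 169 and 92.8 CPM in F3 control and at 114, 133.5, 88.5 and 92.0 CPM in F3 EDC. The groups overlapped, and the log2 difference was -0.25 (SE 0.27, 95% interval -0.84 to 0.34; edgeR adjusted p = 0.711). That interval does not reach the F1 fold change of -2.67. The difference was -0.082 without F3 control replicate 3 and -0.37 without F3 EDC replicate 2, the extremes over the 16 fits that left out 1 library. Slc17a6 stood at 404, 306, 375 and 224 CPM in F3 control and at 392, 347, 368 and 359.7 CPM in F3 EDC. Control replicate 4 was lowest and control replicate 1 highest of these 8 values, and the log2 difference was 0.16 (SE 0.14, 95% interval -0.14 to 0.46; edgeR adjusted p = 0.617). Leaving out control replicate 4 brought it to 0.018, and leaving out control replicate 1 to 0.28. Without the libraries over 40% multimapping it was 0.32.

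The difference between the F3 and F1 effects of EDC was tested directly, as an interaction. It passed for 3 of the 5 members, where 43.6% of all tested genes passed, 21.8% as higher and 21.8% as lower. For Slc17a7 the F3 effect minus the F1 effect was 2.42 on the log2 scale (SE 0.40; edgeR adjusted p = 0.000282), and for Camk2a it was 0.93 (SE 0.17; edgeR adjusted p = 0.000148). In both genes the F1 difference was the more negative, and the F3 difference did not pass the test. Gad2 differed the other way, at -0.45 (SE 0.14; edgeR adjusted p = 0.0134), but not past the threshold without F1 EDC replicate 2 (-0.30; edgeR adjusted p = 0.0523) or with the multimapping share as a covariate (-0.37; edgeR adjusted p = 0.0700). Over the alternatives other than leaving out 1 library that adjusted p ran from 0.00635 to 0.0700. For Gad1 the difference was -0.15 (95% interval -0.44 to 0.14; edgeR adjusted p = 0.424). For Slc17a6 it was -0.12 (95% interval -0.54 to 0.30; edgeR adjusted p = 0.661).

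The control groups of the 2 generations also differed in some members. Gad2 was higher in F3 control than in F1 control, by 0.39 on the log2 scale (SE 0.10; edgeR adjusted p = 0.00563), with no overlap, as in 25.2% of all tested genes. It was 1 of 2 members that passed, both higher, where 27.5% of tested genes passed in either direction, 14.6% as higher and 12.9% as lower. Over all genes this split was 2250 higher and 1983 lower, and with upper quartile factors 2042 higher and 2474 lower. The second was Camk2a, at 0.33 (SE 0.12; edgeR adjusted p = 0.0454). Its F3 and F1 control values overlapped, and it was lost in 10 of the 16 fits that left out 1 library and with upper quartile factors (0.29; edgeR adjusted p = 0.0780; range over such alternatives 0.0113 to 0.0780). The libraries whose removal ended it were F1 control replicates 1, 2 and 3, F3 control replicates 1, 2 and 4, and all 4 of F3 EDC. Gad1 was 0.23 higher (SE 0.10; edgeR adjusted p = 0.0867) and passed without F1 control replicate 3 (0.32; edgeR adjusted p = 0.0253). Slc17a6 was at -0.34 (SE 0.14; edgeR adjusted p = 0.0913) and passed as lower without F3 control replicate 1 (-0.45; edgeR adjusted p = 0.0210), with DESeq2 (-0.33; adjusted p = 0.0329) and with upper quartile factors (-0.38; edgeR adjusted p = 0.0472), with a range of 0.0329 to 0.223 over such alternatives. Slc17a7 was at -0.22 (SE 0.27; edgeR adjusted p = 0.606). This comparison shares its libraries with the EDC comparisons, and lane number goes with generation in it.

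Ordered by group mean, both GABA genes were highest in F3 control. Gad2 ran from F3 control (476 CPM) over F1 EDC (371 CPM) and F1 control (364 CPM) to F3 EDC (355 CPM), and Gad1 from F3 control (294 CPM) over F1 control (249 CPM) and F3 EDC (239 CPM) to F1 EDC (225 CPM). For both genes each group overlapped the next. Slc17a6 ran in another order, from F1 EDC (503 CPM) over F1 control (413 CPM) and F3 EDC (367 CPM) to F3 control (327 CPM), again with overlap at each step. Slc17a7 was highest in F1 control (149 CPM), followed by F3 control (127 CPM) and F3 EDC (107 CPM), which overlapped, and then by F1 EDC (23.5 CPM), which did not. Camk2a had F3 control (221 CPM), F1 control (177 CPM) and F3 EDC (164 CPM) overlapping at each step, and F1 EDC (68.7 CPM) apart. The share of all tested genes with F1 EDC apart from every other group was not counted.

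Ratios of 2 members within a library do not depend on the scaling between libraries. They are ratios of reads and not of molecules, since gene lengths are not in the files, and they were not tested. Reads of Slc17a7 per read of Slc17a6 were 0.430, 0.270, 0.354 and 0.382 in F1 control replicates 1 to 4. In F1 EDC they were 0.0583, 0.0729, 0.0328 and 0.0274. Every F1 EDC library was far below every control in Slc17a7 reads per Slc17a6 read. On the log2 scale the means were -1.498 ± 0.29 in F1 control and -4.50 ± 0.67 in F1 EDC (SD, n = 4), a difference of -3.00. In F3 control the ratios were 0.2997, 0.411, 0.450 and 0.415, and in F3 EDC 0.291, 0.385, 0.241 and 0.256. These overlapped, with log2 means of -1.36 ± 0.26 and -1.80 ± 0.30 (SD, n = 4).

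**Figure D3:**
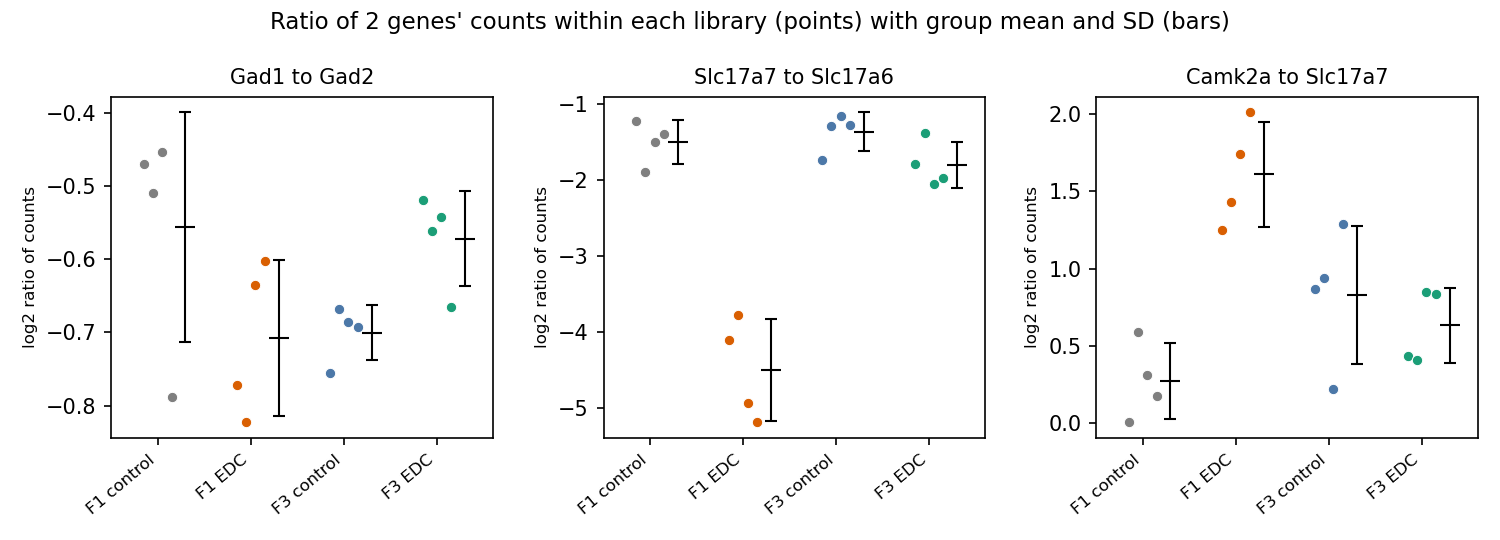
Log2 ratio of the counts of 2 genes within each library (points, replicates 1 to 4 from left to right), with the group mean and SD (bars, n = 4). The Slc17a7 to Slc17a6 ratio is lowest in F1 EDC, at a mean of -4.50, and the Camk2a to Slc17a7 ratio is highest there, at 1.61 on average.

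Camk2a fell less than Slc17a7 in F1, which the ratio of their reads shows without scaling. Camk2a reads per Slc17a7 read ran from 1.01 to 1.504 in F1 control and from 2.38 to 4.03 in F1 EDC, without overlap. The log2 means were 0.27 ± 0.25 and 1.61 ± 0.34 (SD, n = 4). In F3 control the ratio ran from 1.17 to 2.44, and in F3 EDC from 1.33 to 1.80. The ratio of Gad1 to Gad2 was far steadier, between 0.565 and 0.730 in all 16 libraries. In F3 it ran from 0.593 to 0.629 in control and from 0.630 to 0.698 in EDC. These groups did not overlap, although the nearest libraries were almost equal. In F1 it ran from 0.579 to 0.730 in control and from 0.565 to 0.659 in EDC, with overlap.

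Likeness of 2 genes was measured as the root mean square difference of their log2 CPM over the 16 libraries, after each gene was centred on its own mean. Gad1 and Gad2 differed by 0.11, against a median of 0.41 between Gad1 and the 15365 other tested genes. None of those genes was nearer to Gad2 than Gad1, and 1 was nearer to Gad1 than Gad2. Slc17a7 and Camk2a differed by 0.56, and Camk2a ranked 268 among the genes nearest to Slc17a7, with 1.74% of genes nearer. Seen from Camk2a, Slc17a7 ranked 2941. The 2 transporter genes differed by 1.33, where Slc17a7 ranked 14826 of 15365 by nearness to Slc17a6. Seen from Slc17a7, Slc17a6 ranked 10689, and the median difference between Slc17a7 and the other tested genes was 1.19. Libraries, scaling and the large F1 EDC shift are common to all these profiles, so the ranks are a description.

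**Figure D4:**
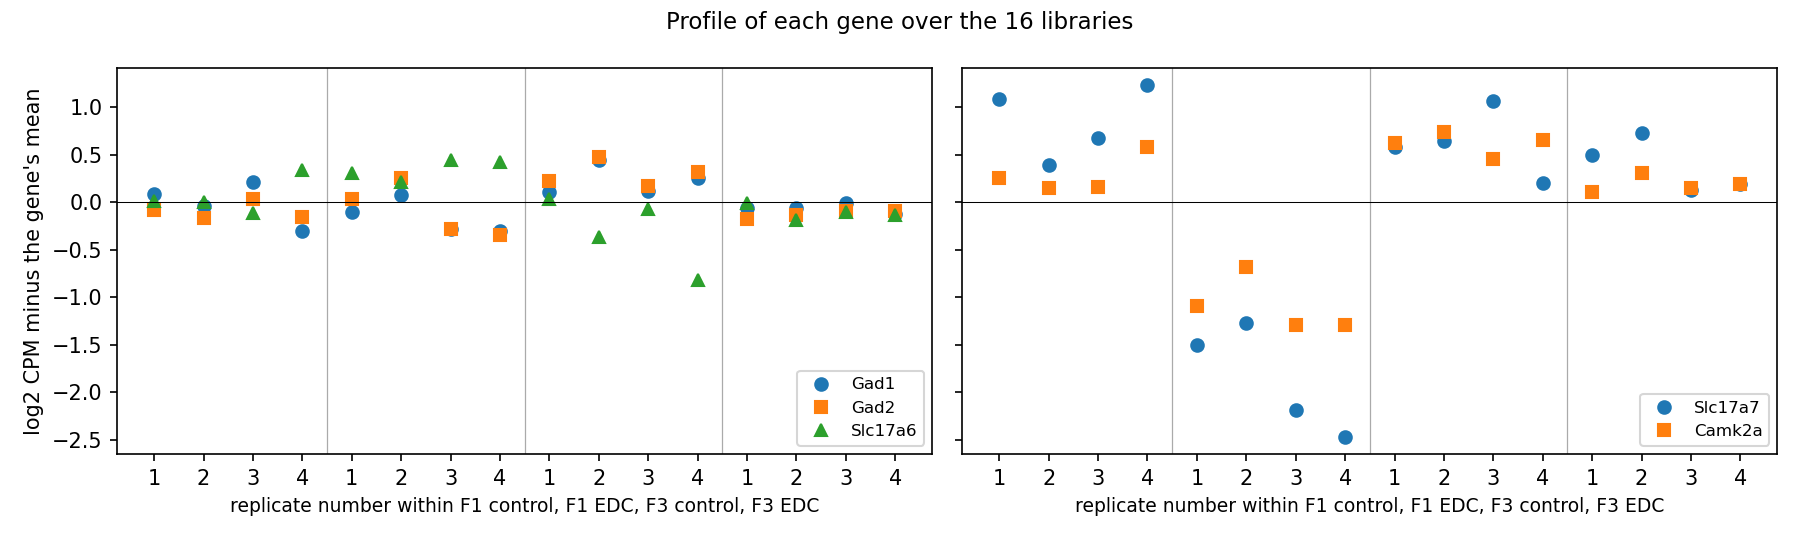
Log2 CPM minus the gene's own mean (vertical axis) in the 16 libraries (horizontal axis, replicates 1 to 4 of each group, groups split by vertical lines). Gad1 and Gad2 lie close together, with a root mean square difference of 0.11, and Slc17a7 falls further than Camk2a in F1 EDC.

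The single genes nearest to the members with the lowest and the highest F1 log2 fold change can be given by ID only. Both were picked for likeness over these same libraries, so a group pattern like the member's follows from that choice. ENSRNOG00000005404 was nearest to Slc17a7, at a root mean square difference of 0.25. In F1 its level was 135 ± 16.8 CPM with vehicle and 25.6 ± 7.75 CPM with EDC (SD, n = 4). In F3 the levels were 139.8 ± 22.9 and 103 ± 9.73 CPM. ENSRNOG00000012787 was nearest to Slc17a6, at 0.12, with 65.2 ± 1.74, 74.0 ± 2.97, 54.1 ± 10.04 and 57.5 ± 0.689 CPM in F1 control, F1 EDC, then the F3 groups likewise.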

How the data were processed

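RNA was sequenced from 16 libraries with single reads of 100 cycles, per the labels' protocols. Trimmomatic 0.33, TopHat2 2.1 and the build rn6 are named, per the submitters' processing notes. The deposited files hold whole-number read counts per gene made by the authors in the layout of the aligner STAR, with its version not given in the sources consulted, and with 32883 Ensembl IDs after 4 summary lines. Column 4 was used, which held at least 52.5 times the gene counts of the opposite strand. Reads on the opposite strand were at most 0.352% of any member's reads. Summary lines stayed out of library sizes: per library, multimapping reads took 15.7% to 51.6% of all reads, no-feature reads 17.7% to 24.4%, unmapped reads 3.63% to 9.45% and ambiguous reads 0.222% to 0.834%. No 2 libraries held identical counts.

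Counts were fitted over all genes with edgeR 4.0.16 (R 4.3.3): filterByExpr (count minimum 10), TMM factors, robust quasi-likelihood F test on 4 group means, Benjamini-Hochberg adjustment over 15366 genes, two-sided threshold 0.05. Each standard error is the absolute fold change over the square root of F. Log2 CPM used a prior count of 2. The procedure was tested on simulated data in which a small share of genes was changed in F1 EDC. In the real data 52.4% of tested genes passed there, and so wide a change was not simulated. The replicate numbers of control and EDC libraries name no shared animal or batch, so they were not used to pair samples. The alternatives tried were DESeq2 1.42.0, voom in limma 3.58.1 (sample weights), upper quartile or RLE scaling, 2 other filters, counts without strand, a replicate block, the multimapping share as a covariate, fits without libraries over 40% multimapping, each generation alone, and leaving out each library. The members, lists and alternatives were chosen with earlier results of these data known. The rule for named genes was all 5 members plus the single nearest ID of the members with the highest and lowest F1 fold change. Planned lists of other GABA, glutamate and cell type genes were not used, since no ID could be paired with a symbol. All 5 symbols matched the RefSeq promoter table, whose windows were cut to the 250 bases before the start.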

Additional observations from a re-analysis of the deposited data

Results flagged for a closer look

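Values here met a fixed rule for a closer look, apart from those given for context. The EDC effect differed between generations, by the interaction test, in 3 members: the F3 effect minus the F1 effect was 2.42 for Slc17a7, 0.93 for Camk2a and -0.45 for Gad2 (log2; edgeR adjusted p = 0.000282, 0.000148 and 0.0134). The interaction passed in 43.6% of all tested genes. For context, all 4 F1 EDC libraries lay below all 4 F1 controls for Slc17a7 and Camk2a. Such separation, in either direction, was seen in 44.0% of all tested genes in F1. In F3, all 4 EDC libraries lay below all 4 controls for Gad1, Gad2 and Camk2a, against 12.2% of all tested genes in either direction.

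A single library lay far from the rest of its group. The log2 ratio of Gad1 to Gad2 counts in F1 control replicate 4 was -0.79, against -0.51 to -0.45 in the other 3 F1 controls. Its gap to the nearest of them was 0.832 of the group's range, just over Dixon's limit for 4 samples. That library is also the shallowest, with 5655354 gene counts, and its part in the ratio was not tested. The rule was applied to 20 groups of member levels and 12 groups of ratios. It marks about 1 in 20 groups by chance, so 1 such group is not unusual.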

How the results depend on the processing

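The F1 calls of Slc17a7 and Camk2a, and their interaction calls, kept direction and threshold under every alternative that could be fitted. Their F1 log2 fold changes ran from -2.71 to -2.63 and from -1.43 to -1.32 over the alternatives other than leaving out 1 library. The fit without libraries over 40% multimapping holds no F1 EDC library, so it gives no F1 or interaction value.

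Slc17a6 in F1 passed with DESeq2 (0.31), the F1 libraries alone (0.28) and the replicate block (0.29; edgeR adjusted p = 0.0399). Gad2 in F1, which was not called, turned to -0.025 with the multimapping share as a covariate, to -0.004364 without F1 EDC replicate 1 and to -0.095 without F1 EDC replicate 2. In F3, Gad2 was lost under the replicate block (-0.42; edgeR adjusted p = 0.0501) and without libraries over 40% multimapping (-0.43). Camk2a in F3 passed with DESeq2 (-0.42), voom (-0.43) and the F3 libraries alone (-0.41), and Gad1 in F3 with voom (-0.29; adjusted p = 0.0394). The number of F3 members called, 1 in the test reported, was 2 with DESeq2 and with the F3 libraries alone, 3 with voom, and 0 under the replicate block and without libraries over 40% multimapping. The interaction of Gad2 was -0.37 with the covariate, not past the threshold. Between controls, Slc17a6 passed with DESeq2 (-0.33) and upper quartile factors (-0.38), and Camk2a was lost with the latter (0.29). Over all genes, F3 called 452 in the test reported, 775 with DESeq2, 1522 with voom, and 0 without libraries over 40% multimapping, where 3 F3 libraries a group remained and the lowest edgeR adjusted p stood at 0.0546 with 2240 genes under 0.05 before adjustment. The cause of these changes was not tested. Leaving out each library in turn gave these ranges where a call or count changed. In F1 the members called ran from 2 to 4, Gad1 from -0.23 to -0.068, Gad2 from -0.095 to 0.11 and Slc17a6 from 0.23 to 0.39. In F3 the genes called ran from 34 (without F3 EDC replicate 3) to 553, and were also fewer without F3 control replicates 1 (199) or 2 (87) and F3 EDC replicates 1 (240), 2 (258) or 4 (270). The F3 members called ran from 0 to 2, Gad2 from -0.47 to -0.36 and Camk2a from -0.48 to -0.39. The interaction of Gad2 ran from -0.51 to -0.30. Between controls the members called ran from 1 to 2, Gad1 from 0.15 to 0.32, Slc17a6 from -0.45 to -0.19 and Camk2a from 0.28 to 0.43.

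The replicate numbers pair no animals in the labels. Deviations of same-numbered libraries correlated between -0.04 and 0.09 across the F1 pairs and between -0.11 and 0.04 across the F3 pairs, and 1 of 4 controls in each generation correlated best with its own number. The block changed no other call among the members. Each member had at least 191 reads in a library, and the effect of depth on its values was not tested.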
